A study of Equus caballus with 2 samples.

Results

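The telomeric ends of horse chromosomes were examined in 2 libraries of reduced representation bisulfite sequencing (RRBS), a method that digests DNA with MspI, sequences only the short pieces and, after bisulfite treatment, reads methylated cytosines as C and unmethylated ones as T. An end was defined as the 3 Mb up to the largest listed position of chromosomes 1 to 31, called the high-position end. Positions 1 to 3000000 of chromosomes 1 to 13 were added as low-position ends, since these chromosomes have a pair of arms. This gave 44 ends. Chromosomes 14 to 31 are acrocentric, so their first 3 Mb lie at the centromere and were counted neither as ends nor as interior. Members were the CpGs of the ends with at least 10 reads in both libraries, strands summed. There were 140130 of them among 877053 such CpGs in all, and 708429 lay in the interiors. The largest listed position is the last CpG covered and not the telomere itself. No genome of the files' build was used here, so no sequences or genes are given and the distance to the telomere repeat is unknown.

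Both libraries came from horse 1. One was made from DNA of a sarcoid, a fibroblastic skin tumour of horses associated with bovine papillomavirus, and the other from skin away from the tumour. No treatment was named, and breed, age and sex were not given in the labels. With a single library of each tissue and no replicates, every difference below describes these 2 libraries, and the conditions themselves could not be tested against each other. Whole tissue was used, so a shift in the mixture of cells and a change within cells cannot be told apart. The skin library held 48650606 reads over cytosines and the sarcoid library 35970547, of which 14.1% and 13.8% fell on members.

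Telomeres are arrays of a short repeat that holds no CpG, bound by proteins that protect the end of the DNA. The subtelomeric DNA inside them is rich in G and C in many mammals, recombines often in meiosis, and holds segments copied between chromosomes. In somatic cells most CpGs outside CpG islands are methylated, whereas islands at promoters are mostly free of methylation. Reads from copied segments can be placed at a wrong copy, and the sources used here do not say how the aligner treated them.

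The ends were the CpG-richest part of the chromosomes that RRBS listed. They made up 5.89% of the summed length of the chromosomes and held 16.0% of the CpGs listed in either library. The files listed 1530 CpGs per Mb at the ends and 496.6 in the interiors, a ratio of 3.08. Most of this ratio came from the number of places with any listed CpG. There were 199.8 tiles of 1 kb with a listed CpG per Mb at the ends and 73.0 in the interiors. The number of CpGs in such a tile was close, at 7.65 and 6.80. Tiles listing over 20 CpGs, called dense below, were 12.2 per Mb at the ends and 4.001 in the interiors. The density was uneven among the ends. The lowest held 170 listed CpGs per Mb (low-position end of chromosome 9), the median 1291 and the highest 7013 (low-position end of chromosome 7). At 36 of 44 ends the density was above that of the interior of the same chromosome, and at 8 it was not. The low-position end of chromosome 7 alone gave 15073 members, 10.8% of all.

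Methylation was higher at the ends than in the interiors in both libraries. The mean level over members was 53.2% in skin and 51.3% in sarcoid. In the interiors, with CpGs reweighted to the density of the members (5 classes of CpGs listed per 1 kb tile), it was 42.0% in skin and 40.8% in sarcoid. The ends were thus 11.2 points higher in skin and 10.5 points higher in sarcoid. Unmethylated CpGs made up a smaller share: 27.6% of members had a skin level of at most 20%, against 42.6% in the interiors at matched density. In sarcoid the shares were 30.1% and 44.3%. Levels of at least 80% were reached by 35.8% of members in skin, against 27.7% in the interiors. When CpGs were matched on the CpGs listed per 100 kb as well as per 1 kb, a setting chosen after seeing the data, the skin gap was 6.75 points.

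**Figure D1:**
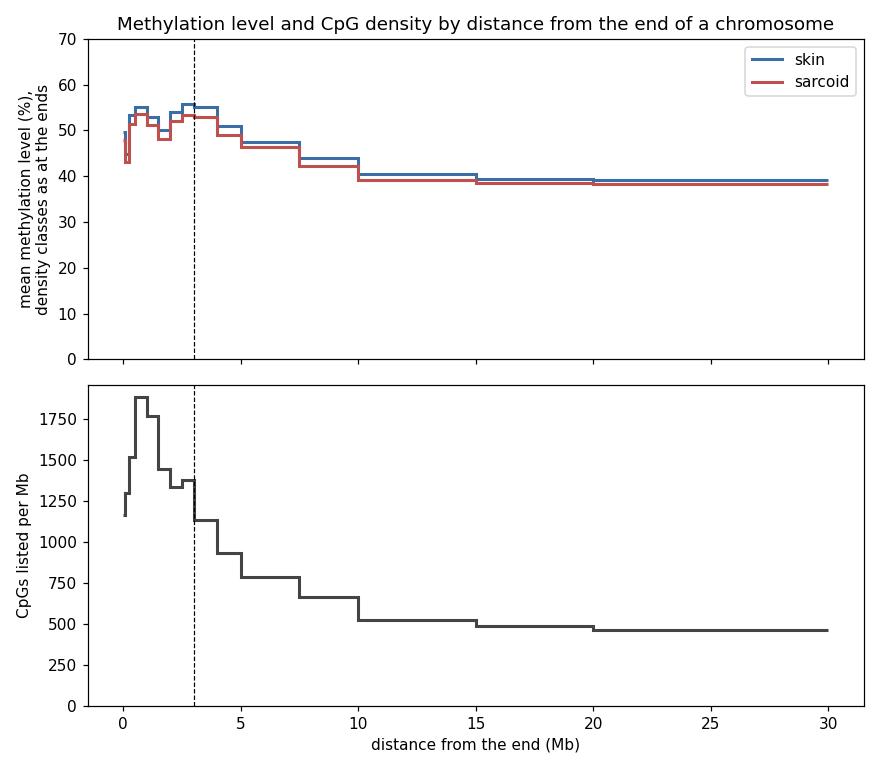
Top, mean methylation level (%) in skin and sarcoid by distance (Mb) from the chromosome end, each bin reweighted to the CpG density classes of the ends. Bottom, CpGs listed per Mb. The dashed line marks 3 Mb. Levels lie above 50% in most bins inside the line and decline to below 40% in skin beyond 15 Mb, and density declines with them.

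The higher level was not limited to the 3 Mb used here. With every distance bin reweighted to the same density classes, the skin level was 49.6% within 0.1 Mb of the end and 44.8% from 0.1 to 0.25 Mb. It was between 50.2% and 55.7% in the bins from 0.25 to 3 Mb. From 3 to 4 Mb it was 55.2%, from 5 to 7.5 Mb 47.6%, from 10 to 15 Mb 40.6% and from 20 to 30 Mb 39.3%. The outermost bin was thus close to the lowest of the bins from 0.25 to 3 Mb, and the bin from 0.1 to 0.25 Mb was lower. Each bin pooled the CpGs of all ends, and the bins were not compared end by end. The high zone reached past the limit into what was counted as interior. Just inside the limit, from 2.9 to 3 Mb, the unweighted skin mean was 51.7%, and just outside, from 3 to 3.1 Mb, it was 50.6%. The density of listed CpGs was highest from 0.5 to 1 Mb, at 1882 per Mb, and was 459.6 per Mb from 20 to 30 Mb.

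The gap was widest in tiles with 11 to 40 listed CpGs. In tiles with up to 5 listed CpGs the skin mean was 62.4% at the ends and 59.2% in the interiors. In tiles with 6 to 10 it was 62.0% and 55.9%. With 11 to 20 CpGs per tile the means were 54.4% and 38.1%, and with 21 to 40 they were 39.6% and 20.8%, a gap of 18.8 points. Tiles with over 40 CpGs had means of 21.5% and 11.4%. Without the low-position end of chromosome 7 the ends had 53.8% at 11 to 20 CpGs and 35.2% at 21 to 40, and the widest gap then lay at 11 to 20. The ends differed more among themselves in the dense classes, with a standard deviation (SD) over ends of 3.44 points in the sparsest class, 15.2 points at 21 to 40 CpGs and 19.6 points in the densest. Of ends with at least 20 members in a class, 39 of 44 lay above the interior of their own chromosome in the sparsest class, 41 of 44 at 6 to 10 CpGs, 39 of 44 at 11 to 20 and 37 of 43 at 21 to 40. In the densest class only 24 of 41 did.

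**Figure D2:**
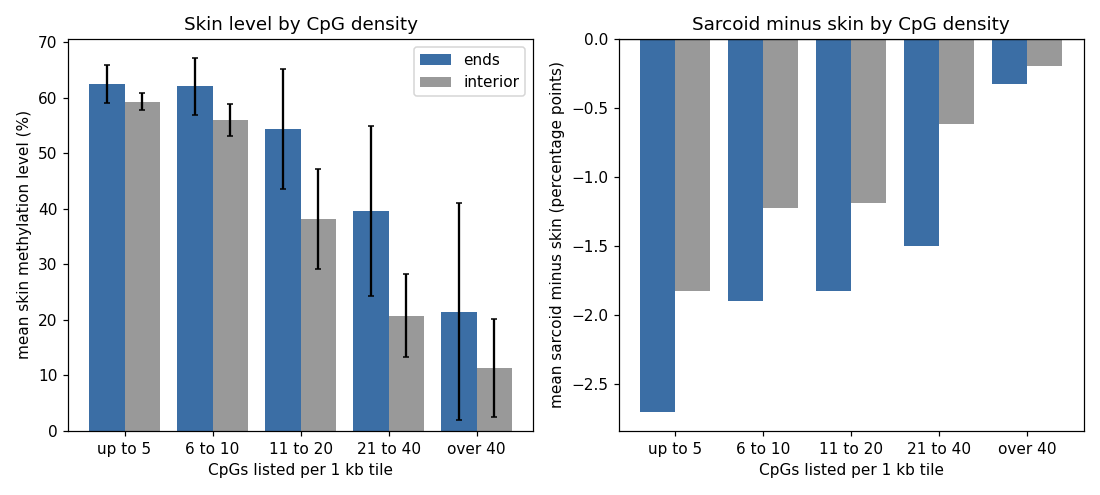
Left, mean skin methylation level (%) of CpGs at the ends and in the interiors, by the number of CpGs listed in their 1 kb tile; bars start at 0 and lines show 1 SD over ends or over chromosomes. Right, mean sarcoid minus skin difference (percentage points) of the same CpGs. The ends are higher than the interiors in every class on the left, most at 21 to 40 CpGs, and lower in every class on the right.

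Dense tiles, where CpG islands would fall, were methylated more often at the ends. Of 1600 dense tiles at the ends with at least 3 members, 701 had a skin level of at most 20% (43.8%, Wilson 95% interval 41.4 to 46.3). In the interiors 5704 of 8183 did (69.7%, interval 68.7 to 70.7). A skin level of at least 80% was seen at 366 dense tiles of the ends (22.9%, interval 20.9 to 24.997) and at 872 of the interiors (10.7%, interval 10.006 to 11.3). These intervals cover counting of tiles only, and neighbouring tiles are not independent. The median skin level of a dense tile was 37.9% at the ends and 1.53% in the interiors. Without the low-position end of chromosome 7, the median of the ends was 20.2%, and 629 of 1262 dense tiles (49.8%, interval 47.1 to 52.6) were at or below 20%. In sarcoid 45.3% of the dense tiles of the ends were at or below 20%, and 70.1% of those of the interiors. The low-position end of chromosome 7 held 338 of the 1600, of which 72 were at or below 20% and 98 at or above 80% in skin. At the low-position end of chromosome 5, by contrast, 17 of 19 dense tiles were at or below 20% and none (0) reached 80%. At the high-position end of chromosome 27, 2 of 12 were at or below 20% and 6 reached 80%. These 3 ends were chosen after their values were seen.

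**Figure D3:**
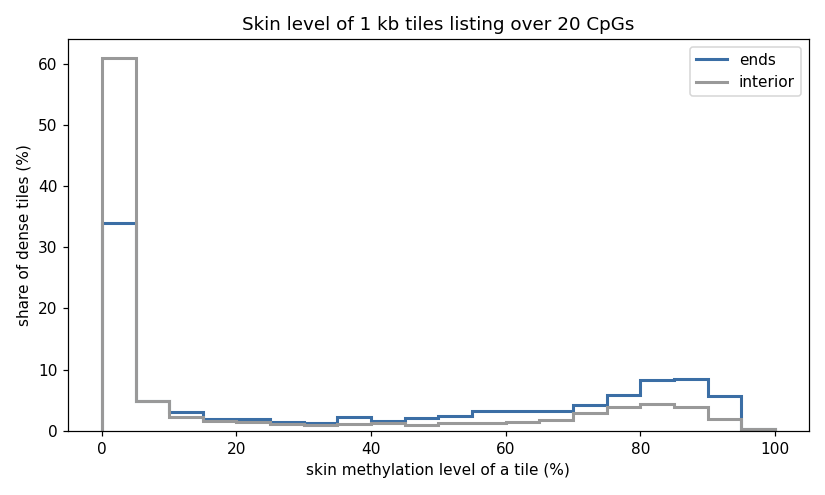
Share of dense 1 kb tiles (over 20 listed CpGs, %) by their skin methylation level (%) in steps of 5 points, for the 1600 tiles of the ends and the 8183 of the interiors. The step from 0 to 5% holds 33.9% of the tiles of the ends and 61.0% of those of the interiors, and the ends lie higher from 80% to 95%.

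The higher level was seen at nearly all ends. Each end was set beside the interior of its own chromosome, reweighted to its density classes. The skin level of the end was higher at 40 of 44 ends, with a mean gap of 9.63 points (SD 7.11, n = 44 ends). In sarcoid 40 of 44 were higher too, with a mean gap of 9.37 points (SD 6.69). The skin mean ran from 42.4% to 66.1% over the ends (median 52.9%). The highest levels were at the high-position ends of chromosome 27, with 66.1% in skin and 63.2% in sarcoid, chromosome 15, with 65.3% and 63.0%, and chromosome 29, with 64.4% and 62.8%. Their own interiors had skin levels of 39.6%, 41.0% and 45.4%. The lowest levels were at the high-position ends of chromosome 20, with 42.4% in skin and 41.9% in sarcoid, and chromosome 13, with 43.1% and 41.9%, and at the low-position end of chromosome 9, with 44.4% and 46.7%. Chromosome 20 had a low interior as well (32.5%), so its end was still 9.95 points above it.

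The 4 ends with a lower skin level than their own interior were the high-position ends of chromosomes 13 (-6.08 points) and 31 (-4.33) and the low-position ends of chromosomes 3 (-2.16) and 8 (-1.17). High-position ends of the acrocentric chromosomes had a mean gap of 12.8 points (SD 7.71, n = 18 ends), those of chromosomes 1 to 13 one of 7.95 points (SD 6.62, n = 13 ends) and low-position ends one of 6.95 points (SD 5.21, n = 13 ends). These kinds of end overlapped widely. On the 13 chromosomes with both ends, the low-position end had the higher skin level on 6, so neither side was regularly higher.

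**Figure D4:**
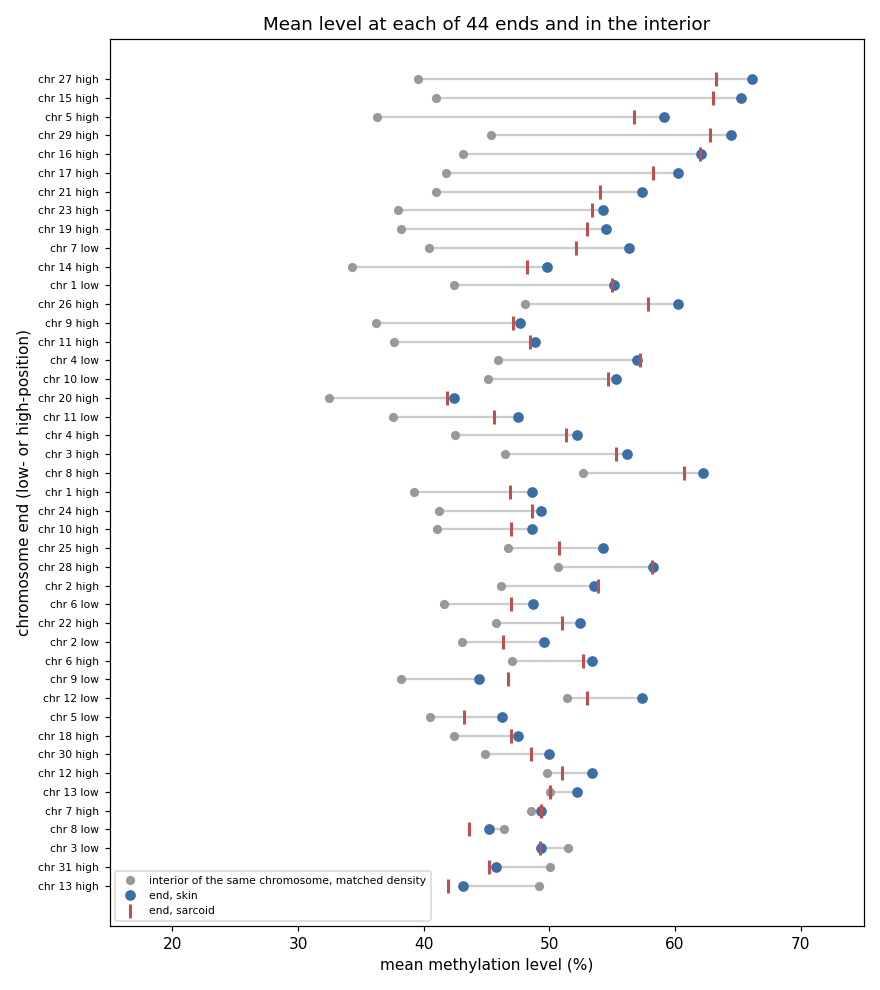
Mean methylation level (%) of each of the 44 ends in skin (blue point) and sarcoid (red tick), and the skin level of the interior of the same chromosome at matched density (grey point), sorted by the gap between end and interior in skin. At 40 ends the blue point lies to the right of the grey one, and the gap reaches 26.6 points at the high-position end of chromosome 27.

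Between tissues, methylation at the ends was slightly lower in the sarcoid. The mean difference over members, sarcoid minus skin, was -1.87 points, against -1.15 points in the interiors at matched density, a gap of -0.716 points. The difference was -2.62 points at low-position ends and -1.54 points at high-position ends. The mean was lower in the sarcoid at 40 of 44 ends, with a median of -1.47 points (range -4.40 to 2.30). The own interior at matched density was lower in the sarcoid for all 44, with a median of -1.08 points. The share of members at or below 20% was 2.48 points larger in sarcoid than in skin, against 1.71 points in the interiors (unweighted). Against its own interior, however, the difference was more negative at 28 ends and less negative or positive at 16, with a mean gap of -0.256 points (SD 1.26, n = 44 ends). Without the low-position end of chromosome 7 this mean over ends was -0.208 points (SD 1.23, n = 43 ends). The gap over all members, -0.716 points, shrank to -0.413 points without that end. It was -0.0152 points when the interior was matched on the skin level of the CpGs as well as on density. With matching on the mean level of both libraries in place of the skin level it was -0.601 points, so its size depended on how the level was taken into account.

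The largest decreases were at the low-position end of chromosome 12, from 57.4% to 53.0% (-4.40 points), the low-position end of chromosome 7, from 56.3% to 52.2% (-4.15 points), and the high-position end of chromosome 25, from 54.2% to 50.8% (-3.45 points). The interiors of these chromosomes differed by -2.96, -1.82 and -2.97 points. Chromosome 7 was thus the one of the 3 whose end lay furthest below its own interior, and its high-position end differed by 0.04 points only. Positive differences were seen at the low-position end of chromosome 9, from 44.4% to 46.7% (2.30 points over 324 members), the high-position end of chromosome 2, from 53.5% to 53.9% (0.39 points), and the low-position end of chromosome 4, from 57.0% to 57.2% (0.22 points). The high-position end of chromosome 7 is the remaining one of the 4 ends above 0. The first and the third of these are among the ends with fewest members.

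The mean difference was more negative on chromosomes with deeper sarcoid coverage, at the ends and in the interiors, although single ends did not all follow this. Chromosomes 5, 6, 7, 12, 18, 21, 22, 25, 28 and 29 were taken as those with more sarcoid reads relative to skin. They held 14 of the 44 ends, including those of chromosomes 7, 12 and 25 just named. The split was not sharp. The median ratio of sarcoid to skin reads per interior CpG (log2) was -0.427 on chromosome 27, which was counted with the others. It was -0.424 on chromosome 25 and -0.435 on chromosome 12. The mean difference of members was -2.77 points on the 10 deeper chromosomes, against -1.76 in their interiors at matched density. On the other 21 chromosomes it was -1.26 points at the ends and -0.874 in the interiors. The gap between ends and interiors was therefore -1.01 and -0.384 points, of the same sign in both. The low-position end of chromosome 7 held 15073 of the 56545 members on the 10 chromosomes. Taken per end against the own interior, the median gap was -0.128 points at their 14 ends, with 8 below 0. At the other 30 ends it was -0.447 points, with 20 below 0. The differences themselves ran from -4.40 to 0.04 points at the 14 ends (median -2.06) and from -3.27 to 2.30 at the 30 (median -1.04). The part of depth in these differences was not tested.

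**Figure D5:**
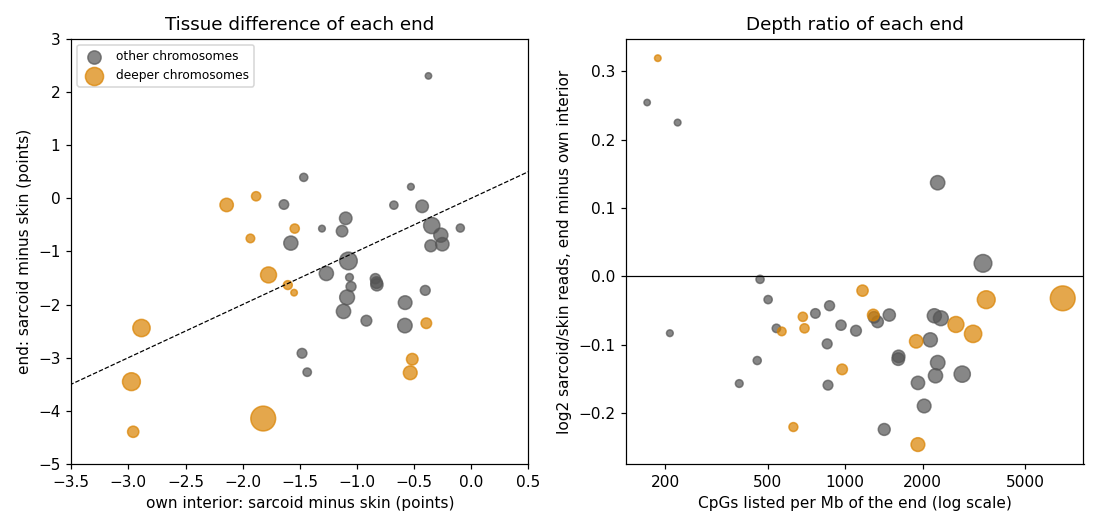
Left, mean sarcoid minus skin difference (points) of each end against that of its own interior at matched density; ends below the dashed line of equality lost more than their interior (28 of 44). Right, reads of the end in sarcoid over skin (log2) minus the same ratio of its own interior, against the CpGs listed per Mb of the end (log scale); 39 of 44 ends lie below 0. Point area grows with the number of members, and orange marks the 10 chromosomes taken as having deeper sarcoid coverage.

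At single CpGs the ends held somewhat more decreases than the genome as a whole. The reads of both libraries were compared at each CpG by a two-sided Fisher's exact test with Benjamini-Hochberg adjustment over all 877053 CpGs. A CpG was called where q was below 0.01 and the level differed by 25 points or more. Of the 140130 members, 3341 (2.38%) were called lower in the sarcoid, where 1.89% of all CpGs were. A further 1431 (1.02%) were called higher, where 0.954% of all CpGs were, which is close to the background. Decreases thus outnumbered increases by 2.33 to 1 at the ends and by 1.88 to 1 in the interiors. The interiors at matched density had 1.80% of CpGs called lower and 0.960% higher. Decreases outnumbered increases at 37 ends, increases outnumbered decreases at 6, and numbers were equal at 1. The low-position end of chromosome 7 gave 635 of the decreases and 128 of the increases. Without it, a setting chosen after seeing the data, 2.16% of members were called lower and 1.04% higher. Without the 10 deeper chromosomes, and with q adjusted anew, 1.47% of members were called lower, against 1.26% in the interiors at matched density.

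Members of intermediate level were called most often, which the calling rule fixed in part, and the ends had more members of such levels. Of members with a mean level of both libraries from 40% to 60%, 7.91% were called lower, against 7.20% of such CpGs in the interiors. From 20% to 40% the shares were 4.17% and 4.20%, and from 80% upwards 0.228% and 0.159%. A call needs the minimum difference set above, and a mean level close to either limit of the scale leaves no room for it. The low shares from 80% upwards were therefore fixed in part by this rule. Shares of different classes cannot be compared with each other. Within a class, ends and interiors were not matched on density or chromosome. The 10 deeper chromosomes held 56545 of the 140130 members and 223424 of the 708429 interior CpGs. In the interiors, 2.71% of CpGs were called lower on these chromosomes and 1.35% on the others. Between 20% and 80% lay 36.6% of members in skin, against 29.9% of the CpGs of the interiors (unweighted). The expected share of CpGs at least 40 points lower in sarcoid, if exactly 10 reads of each library were kept at each CpG, was 6.72% at the ends and 5.19% in the interiors at matched density. With matching on the mean level of both libraries as well, the interiors reached 6.30%. The opposite change, 40 points or more upwards, was expected at 4.05% of CpGs at the ends, 3.48% of those in the interiors at matched density and 4.29% with the level matched as well. With 10 reads, sampling puts many unchanged CpGs past 40 points, so these shares serve only for comparison between the sets.

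Tiles of 1 kb with at least 3 members were tested in the same way on their summed reads, with q adjusted over 103512 tiles. Of 16721 tiles at the ends, 736 (4.40%) had a called fall and 359 (2.15%) a called rise, where 4.1% and 2.28% of all tiles were. Both shares were near the background. Among dense tiles, 45 of 1600 (2.81%) were called lower at the ends and 116 of 8183 (1.42%) in the interiors, and 12 (0.75%) and 72 (0.880%) higher. Without the low-position end of chromosome 7, 24 of 1262 (1.90%) were called lower at the ends. A tile at or below 20% in skin cannot fall by 25 points. Such tiles made up 43.8% of the dense tiles of the ends and 69.7% of those of the interiors. The shares called lower were therefore not taken over like tiles, and whether they differ at equal skin level was not tested. The reads of a tile were added up over its CpGs, so that a read spanning several of them entered repeatedly. The q-values are therefore too small and the Wilson intervals below too narrow.

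The largest fall was on chromosome 10 from 2274001 to 2275000, at 2.27 Mb from the end. In skin 116 reads at its 4 CpGs gave 85.3% (Wilson 95% interval 77.8 to 90.6), and in sarcoid 48 reads gave 16.7% (8.70 to 29.6), a fall at q = 2.88e-15 by Fisher's exact test. On chromosome 12, the tile from 968001 to 969000 fell from 78.1% to 15.6% over 5 CpGs, all 5 of them called singly, and the tile from 237001 to 238000 fell from 70.6% to 12.1% over 3 CpGs. The tile of chromosome 7 from 724001 to 725000 was the best covered of the 5. Its level was 83.2% in skin (80.2 to 85.8, 673 reads) and 24.8% in sarcoid (21.4 to 28.6, 552 reads), with 16 of 16 CpGs lower and 12 called singly (q = 3.20e-95). Chromosome 13 from 2520001 to 2521000 went from 76.2% (42 reads) down to 18.2% (33 reads), at 3 CpGs of which none (0) was called singly.

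The largest rise was on chromosome 17 from 79797001 to 79798000, at 0.955 Mb from the end. Its level was 21.5% in skin (interval 17.1 to 26.8, 274 reads) and 79.1% in sarcoid (70.6 to 85.6, 110 reads), with 5 of 5 CpGs higher and 4 called singly (q = 8.61e-24). On chromosome 4, the 4 CpGs from 106669001 to 106670000 rose from 28.3% to 85.2%. The 3 CpGs of chromosome 7 from 1321001 to 1322000 went up from 29.2% to 86.0%, on the same end that held the best covered fall. A tile of chromosome 1 (184604001 to 184605000) went up from 27.9% to 84.1%, and one of chromosome 14 (92155001 to 92156000) from 33.3% to 87.7%. All 10 of these tiles listed 16 CpGs or fewer.

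The largest changes of dense tiles were smaller in size. At 6 of 28 listed CpGs of the chromosome 7 tile 2086001 to 2087000, the level fell from 62.2% to 17.8%. Chromosome 25 from 36577001 to 36578000 was at 53.0% in skin (interval 49.3 to 56.6, 715 reads) and fell to 10.2% in sarcoid (7.71 to 13.4, 441 reads), with 17 of 19 CpGs lower. It lay 2.96 Mb from the end, just inside the limit. Chromosome 26 from 39400001 to 39401000 fell from 70.4% to 30.5%, with 12 of 12 CpGs lower. Among rises, chromosome 13 from 41375001 to 41376000 was at 37.7% in skin (35.0 to 40.4, 1244 reads) and rose to 79.0% in sarcoid (74.8 to 82.7, 410 reads), with 16 of 20 CpGs higher and 7 called singly. Chromosome 26 from 41766001 to 41767000, only 0.0845 Mb from the end, rose from 47.0% (1403 reads) to 83.7% (412 reads), with 21 of 23 CpGs higher. Chromosome 12 from 32868001 to 32869000 rose from 27.5% to 63.9%, with 14 of 14 CpGs higher. In each of these rises the sarcoid had fewer reads than skin.

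Coverage of the ends was close to that of the interiors, with slightly fewer sarcoid reads. Members had a median of 41 reads in skin and 29 in sarcoid, and CpGs of the interiors 41 and 31. The ratio of sarcoid reads to skin reads (log2), taken at matched density as ends minus interiors, was -0.050. It was below that of the own interior at 39 of 44 ends, with a median of -0.08 (range -0.25 to 0.32). The lowest values were at the high-position ends of chromosomes 21 (-0.25), 4 (-0.22) and 29 (-0.22). The highest were at the low-position ends of chromosomes 6 (0.32) and 9 (0.25) and the high-position end of chromosome 31 (0.23). These last 3 ends are sparse, with 380, 324 and 430 members. Against their own interiors, 10 of 13 low-position ends lay below 0. Pooled over the members of low-position ends and set against all interiors, the gap was 0.010, and it was -0.058 without chromosome 7, one of the deeper chromosomes, whose low-position end held 15073 of these members. High-position ends gave -0.078.

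Other properties of the measurement were similar at ends and interiors. Of the CpGs listed at the ends 13.5% were listed in 1 library only, against 14.01% in the interiors. Both strands had at least 10 reads in both libraries at 28.6% of members and 29.1% of interior CpGs. At these CpGs the strands lay at least 30 points apart at 13.96% of members in skin and 14.2% in sarcoid, against 12.95% and 13.1% in the interiors. Very deep CpGs made up a smaller share at the ends: 146 members (0.104%) and 1155 interior CpGs (0.163%) had over 574 reads in skin or 403 in sarcoid. Of these 146, 102 lay on chromosome 13 between 8151 and 91575, in 7 tiles, with medians of 857 reads in skin and 511 in sarcoid and mean levels of 34.4% and 35.1%. Without them, the members of that end had means of 51.0 and 34.0 reads, close to the 48.9 and 35.4 of all members.

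In the authors' deposited table, which held chromosome 1 only, 4175 CpGs lay in the low-position end and 2186 in the high-position end. By the q-values and differences of the authors' deposited table, at the thresholds used here, 40 CpGs of the low-position end were lower in the sarcoid and 22 higher. At the high-position end of chromosome 1 the authors' deposited table gave 29 lower and 19 higher, and in its interior 563 lower and 399 higher of 67826. Decreases were therefore 0.958% and 1.33% of the CpGs of these ends in the authors' deposited table, and 0.830% of those of the interior. Increases were 0.527% at the low-position end, 0.869% at the high-position end and 0.588% in the interior.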

How the data were processed

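DNA methylation was measured by RRBS in 1 library of sarcoid and 1 of tumour-distant skin of 1 horse, as 75 bp single-end reads per the labels' protocols. Per the submitters' processing notes the tools were FastQC, BSMAP and methylKit, with no version stated, and the genome build is not given in the sources used here. Per the file headers, the deposited files give the read count (coverage) and the percent of reads with C for each cytosine of a CpG and strand. Per its header, a further table deposited by the authors holds the p-value, q-value and methylation difference of CpGs, and it covers chromosome 1 only. The header gives no direction for the difference. It was read as skin minus sarcoid, since its correlation with sarcoid minus skin was -0.998 over 59436 CpGs.

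The number of methylated reads was the rounded product of coverage and percent of C. Strands were summed, and a CpG was kept if each library had 10 reads or more, with no upper limit. Interiors exclude 3 Mb at both borders of every chromosome. They were reweighted to the share of members in 5 classes of CpGs listed per 1 kb tile (up to 5, 6 to 10, 11 to 20, 21 to 40, over 40). Levels are unweighted means over CpGs. Fisher's exact test with Benjamini-Hochberg adjustment compares these 2 libraries and not the conditions. Reads carry no molecular identifiers and may be PCR copies, so intervals cover counting error only. The ends named had the 3 highest and 3 lowest skin levels, differences or depth ratios among ends with at least 100 members. The tiles named were the 5 largest called falls and rises, and the 3 of each among dense tiles. The members, classes and rules were chosen with earlier results of these data known. Scripts were tested on simulated data. Software was matplotlib 3.10.9, numba 0.67.0, SciPy 1.17.1, NumPy 2.4.6, pandas 2.3.3 and Python 3.11.15.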

Additional observations from a re-analysis of the deposited data

How the results depend on the processing

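Each tissue had 1 library, so no replicate could be left out. No paired analysis was possible because there was 1 library per tissue. The skin level of the ends was above that of the interiors at matched density under all settings run, by 6.75 to 13.2 points. The gap was 10.2 points with ends of 1 Mb and 12.3 with ends of 5 Mb, and 11.3 with a minimum of 5 or of 20 reads. It was 10.1 without the 10 deeper chromosomes, 9.59 against the interior of the same chromosome and 11.1 at CpGs covered on both strands. High-position ends gave 10.4 and low-position ends 13.2. Settings chosen after seeing the data gave 6.75 with density per 100 kb matched too, 9.69 without the low-position end of chromosome 7 and 9.46 with each end weighted equally.

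The gap of the tissue difference, -0.716 points as reported, kept its sign, and its size ranged widely. It was -0.412 and -0.884 points with ends of 1 Mb and 5 Mb, -0.834 at 20 reads, -0.384 without the deeper chromosomes and -0.575 against the same chromosome. High-position and low-position ends gave -0.367 and -1.52. It was -0.0152 with the skin level matched. The counting half-width of the main setting was 0.0558, and none was computed for the setting with the skin level matched. Of settings chosen after seeing the data, the mean level matched gave -0.601, density per 100 kb -0.221, leaving out the low-position end of chromosome 7 -0.413 and equal weights of ends -0.211.

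The depth gap (log2) turned to 0.0101 over low-position ends and was -0.0778 over high-position ends. With ends of 1 Mb and 5 Mb it was -0.0478 and -0.0467, at 5 and 20 reads -0.0605 and -0.0319, and with an upper limit on reads -0.0561. It was -0.0715 without the deeper chromosomes, -0.0542 with each number of CpGs per tile as a class, -0.0750 against the same chromosome and -0.0369 on both strands. Later settings gave -0.0164 (100 kb), -0.0430 (mean level), -0.0717 (without the low-position end of chromosome 7) and -0.0590 (equal weights). The density ratio was 3.02 and 2.83 with ends of 1 Mb and 5 Mb, and 2.82 without that end. CpGs called lower and higher numbered 1098 and 521 of 50166 members with ends of 1 Mb. These were 2.19% and 1.04%, against 1.85% and 0.945% in the interiors at matched density. Without the deeper chromosomes they numbered 1232 and 680 of 83585 (1.47% and 0.814%, against 1.26% and 0.787%). At q below 0.05 and 15 points they numbered 6090 and 2846 of 140130 (4.35% and 2.03%, against 3.28% and 1.84%). Without the low-position end of chromosome 7, 49.8% of dense tiles of the ends were at or below 20% in skin, with a median of 20.2%. Apart from the counts, which change with the size of the set and the calling rule, the cause of these shifts was not tested. Of the 90862 members with 20 reads in both libraries 3.58% were called lower, against 2.58% in the interiors at matched density.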

Other observations

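The ends were also cut into slices of 1 Mb, of which 129 of 132 held at least 50 members. The sarcoid mean was lower in 110 of these slices and higher in 19, with a median difference of -1.36 points. No slices of the interiors are given for comparison. The largest decrease was in the last 1 Mb of chromosome 26, where the mean of 774 members was 62.2% in skin and 55.1% in sarcoid (-7.11 points), with 55 CpGs called lower and 11 higher. The shares over all CpGs were 1.89% lower and 0.954% higher. The same 1 Mb held the dense tile that rose from 47.0% to 83.7%. In all, 5 slices were lower by 5 points or more. At 1 to 2 Mb of the high-position end of chromosome 19 the difference was -5.99 points over 142 members, with 1 CpG called lower and 2 higher. At 1 to 2 Mb of the low-position end of chromosome 12 it was -5.75 points over 786 members, with 35 lower and 13 higher. The slice at 2 to 3 Mb of the high-position end of chromosome 21 had means of 46.5% and 41.3% (-5.22 points) over 718 members, with 54 CpGs called lower and 0 higher. The corresponding slice of chromosome 25 had means of 60.7% and 55.6% (-5.14 points) over 3045 members, with 155 lower and 28 higher. The largest positive difference was 3.20 points, in the slice at 2 to 3 Mb of the high-position end of chromosome 2, over 141 members with 1 CpG called lower and 0 higher. These slices were chosen after their values were seen. All 3 slices of the low-position end of chromosome 7 were lower in the sarcoid, with differences of -4.60, -3.07 and -4.49 points from the tip inwards.

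The skin level of slices ran from 27.6%, at 2 to 3 Mb of the high-position end of chromosome 13, to 74.9%, at 2 to 3 Mb of the low-position end of chromosome 4 (97 members). The outermost slice of the high-position end of chromosome 9 had a skin level of 30.5% over 1623 members. Low levels were thus found in single slices of ends whose other slices were higher.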
